A study of Homo sapiens with 6 samples.

Results

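The genes described here, under the heading of EGR factors and other immediate early genes, are 10 genes of SKM-1 cells. The heading is a label for the set and does not class each gene. Taken by gene name from the deposited tables, they are EGR1, EGR2, EGR3, NAB1, NAB2, SRF, IER2, IER3, IER5 and SERTAD1. They are 10 of 26704 genes listed in any of the 3 tables, and all 10 are listed in each. SKM-1 is a widely used human cell line, labelled here as acute myeloid leukaemia. RNA was measured in 1 library of cells given VEM, 1 library given VEM with BOR, 2 libraries given BOR and 2 libraries of cells given neither. VEM is vemurafenib, an inhibitor of RAF kinases, per the series title. The labels leave BOR as an abbreviation, and the sources used here state neither doses nor treatment times. Whether libraries of 1 group came from separate cultures is not labelled, so p-values measure the spread between these libraries alone, which may be technical.

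Immediate early genes are transcribed within minutes of a growth factor, cytokine or stress signal, without new protein synthesis. ERK signalling to ternary complex factors bound beside serum response factor, the product of SRF, is the best known route to EGR1, EGR2 and EGR3, which encode zinc-finger transcription factors. NAB1 and NAB2 encode corepressors that bind EGR proteins, and NAB2 is itself an EGR target, so the circuit feeds back on itself. IER2, IER3 and IER5 encode small proteins named for their immediate early response, of which IER3 acts in cell survival and IER5 in the heat shock factor response. SERTAD1 encodes a regulator of cyclin D-dependent kinase and E2F activity. In myeloid cells EGR factors are known for their part in monocyte and macrophage differentiation.

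The promoters of the 3 members that carry a CArG box, the element bound by serum response factor, and that of SERTAD1, which stood beside EGR1 at the top of 1 library, are shown first. Each line gives the 250 bases before a RefSeq gene start on the gene's own strand, GRCh38.p14, 5′ to 3′. Capitals mark matches on either strand to the CArG box, the EGR site GCGNGGGCG, the CRE half-site TGACG or the ETS core CCGGAA. EGR1 lies on the plus strand at chr5:138465229-138465478, SRF on the plus strand at chr6:43171019-43171268, EGR2 (the start nearest the gene's 3′ end, of 3 listed) on the minus strand at chr10:62816367-62816616, and SERTAD1 on the minus strand at chr19:40425993-40426242.
EGR1: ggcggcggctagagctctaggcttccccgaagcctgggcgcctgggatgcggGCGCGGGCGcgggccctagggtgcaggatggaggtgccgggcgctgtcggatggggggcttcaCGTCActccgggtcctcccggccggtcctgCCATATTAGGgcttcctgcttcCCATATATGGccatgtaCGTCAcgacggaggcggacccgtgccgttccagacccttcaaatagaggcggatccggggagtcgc
SRF: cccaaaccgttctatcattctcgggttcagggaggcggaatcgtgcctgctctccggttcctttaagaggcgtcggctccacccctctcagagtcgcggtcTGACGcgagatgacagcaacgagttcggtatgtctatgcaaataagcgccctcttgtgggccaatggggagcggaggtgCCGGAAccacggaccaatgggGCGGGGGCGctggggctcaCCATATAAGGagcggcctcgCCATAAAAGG
EGR2: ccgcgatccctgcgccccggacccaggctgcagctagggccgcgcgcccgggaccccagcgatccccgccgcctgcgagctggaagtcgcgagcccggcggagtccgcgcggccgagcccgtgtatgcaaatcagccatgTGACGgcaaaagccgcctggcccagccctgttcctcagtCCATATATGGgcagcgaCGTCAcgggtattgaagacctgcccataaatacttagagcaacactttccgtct
SERTAD1: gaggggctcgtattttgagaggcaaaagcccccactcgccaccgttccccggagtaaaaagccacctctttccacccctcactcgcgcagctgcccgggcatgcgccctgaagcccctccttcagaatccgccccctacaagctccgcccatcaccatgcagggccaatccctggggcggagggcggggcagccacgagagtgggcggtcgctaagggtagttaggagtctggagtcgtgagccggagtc

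The EGR1 promoter held 2 CArG boxes, which began 105 and 83 bases before the start, and the SRF promoter held 2, at 30 and 10 bases. EGR2 held 1, at 71 bases. The RefSeq table had an entry for 8 of the 10 members; EGR3 and IER3 had none. Counted over 300 bases, 250 before and 50 after each start, 3 of the 8 held a CArG box in an entry, against 1.29% of 35116 promoter entries of the same length. The EGR site was found for 5 of 8 members (EGR1, EGR2, NAB1, NAB2 and SRF), against 9.43% of all entries. NAB1 and EGR2 have 3 entries each and SRF has 2, which gives them more bases to hold a match than an average entry. The CRE half-site was found for 5 members and 24.6% of entries, and the ETS core for 4 members (IER2, IER5, SERTAD1 and SRF) and 17.2% of entries. In the printed SERTAD1 stretch none of the 4 motifs was found. A match describes letters and shows no binding.

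The genes lie as follows, in coordinates that equal GENCODE release 29 on GRCh38 for 10 of 10 members. EGR1 (ENSG00000120738) spans 138465490 to 138469315 on chromosome 5, and SERTAD1 (ENSG00000197019) spans 40421592 to 40426025 on chromosome 19. NAB2 (ENSG00000166886) spans 57088894 to 57095476 on chromosome 12, and IER5 (ENSG00000162783) spans 181088712 to 181092899 on chromosome 1. Isoforms of a gene share 1 value. Since no step that marks the strand is described, a gene and its antisense partner cannot be told apart. That touches IER2, of whose exon bases 30.8% are shared with AC011446.2 on the opposite strand, and IER3, with 26.5% shared with IER3-AS1. Smaller shares were 3.81% of NAB1 with AC006460.1, 3.38% of EGR3 with AC055854.1 and 2.29% of NAB2 with STAT6. NAB1 also shares 0.205% with AC006460.2.

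Depth was similar, with 17371022 to 18507606 reads recovered in the 5 libraries other than VEM, whose reads were not totalled. The library BOR 2 stood apart. On all genes, which do not count as replicates, it correlated at 0.860 to 0.879 with the other libraries on the log2 scale, while those correlated at 0.964 to 0.985 with each other. Over 15438 genes, log2 differences from the mean of the untreated pair had an SD of 1.46 in BOR 2, against 0.50 in VEM, 0.53 in VEM+BOR and 0.38 in BOR 1. Mitochondrial transcripts made up 3.14% of the summed normalised counts in BOR 2 and 4.23% to 5.40% elsewhere. The 10 myeloid markers checked were present in every library, with a summed normalised count of 63894 in VEM, 55651 in VEM+BOR, 131580 and 160280 in BOR 1 and 2, and 123950 and 142010 in untreated cells. The markers did not share the lower sums with VEM. MPO, ELANE, PRTN3, AZU1 and CEBPA were below both untreated libraries in VEM and in VEM+BOR. SPI1 and CSF3R lay between the untreated values in both, and PTPRC, CD33 and LYZ were above both untreated libraries in VEM+BOR. In bulk libraries fewer cells of a type and less RNA per cell cannot be told apart. PTPRC, the pan-leukocyte marker CD45, was 265 in BOR 2 against 3315 and 3059 in untreated cells. Other genes of the list went both ways in BOR 2. The granule gene MPO was higher, at 41389 against 18446 and 15239 in untreated cells. The myeloid factor gene SPI1, at 7085, lay between the untreated values of 5303 and 7133. Lower than both untreated libraries were the surface marker gene CD33, at 898 against 1408 and 1240, and AZU1, at 16300 against 24140 and 24534. Summed T cell markers (2 of 6 listed in all tables) were 2.74 to 46.7 and summed erythroid markers (2 of 5) 2.67 to 20.9. Epithelial markers (2 of 5) summed to 3.62 to 12.7, with KRT8 at 0 in 5 libraries, and fibroblast markers (2 of 5) to 33.9 to 146. The part of these differences in the results below was not tested.

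Levels per library below are normalised read counts brought to 1 scale over the 6 libraries. EGR1 was 1202 in VEM, 676 in VEM+BOR, 111 in BOR 1 and 15871 in BOR 2, and untreated cells had 201 and 106. The 2 libraries with VEM and BOR 2 were above both untreated libraries, and BOR 1 lay between them. EGR2, the paralogue that drives myelination and also acts in myeloid cells, was 46.4 in VEM, 31.7 in VEM+BOR, 15.5 in BOR 1 and 94.7 in BOR 2, with 19.3 and 3.87 in untreated cells. It took the same order as EGR1 at a far lower level, and the untreated pair rests on 22 and 4 recovered reads. EGR3 was at the limit of detection, with a normalised count of 1.82 in VEM, 2 recovered reads in VEM+BOR, 1 in each BOR library, and 0 and 1 in the untreated libraries. A count of 0 allows up to 3 reads, so no difference in EGR3 was detectable at this depth.

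**Figure D1:**
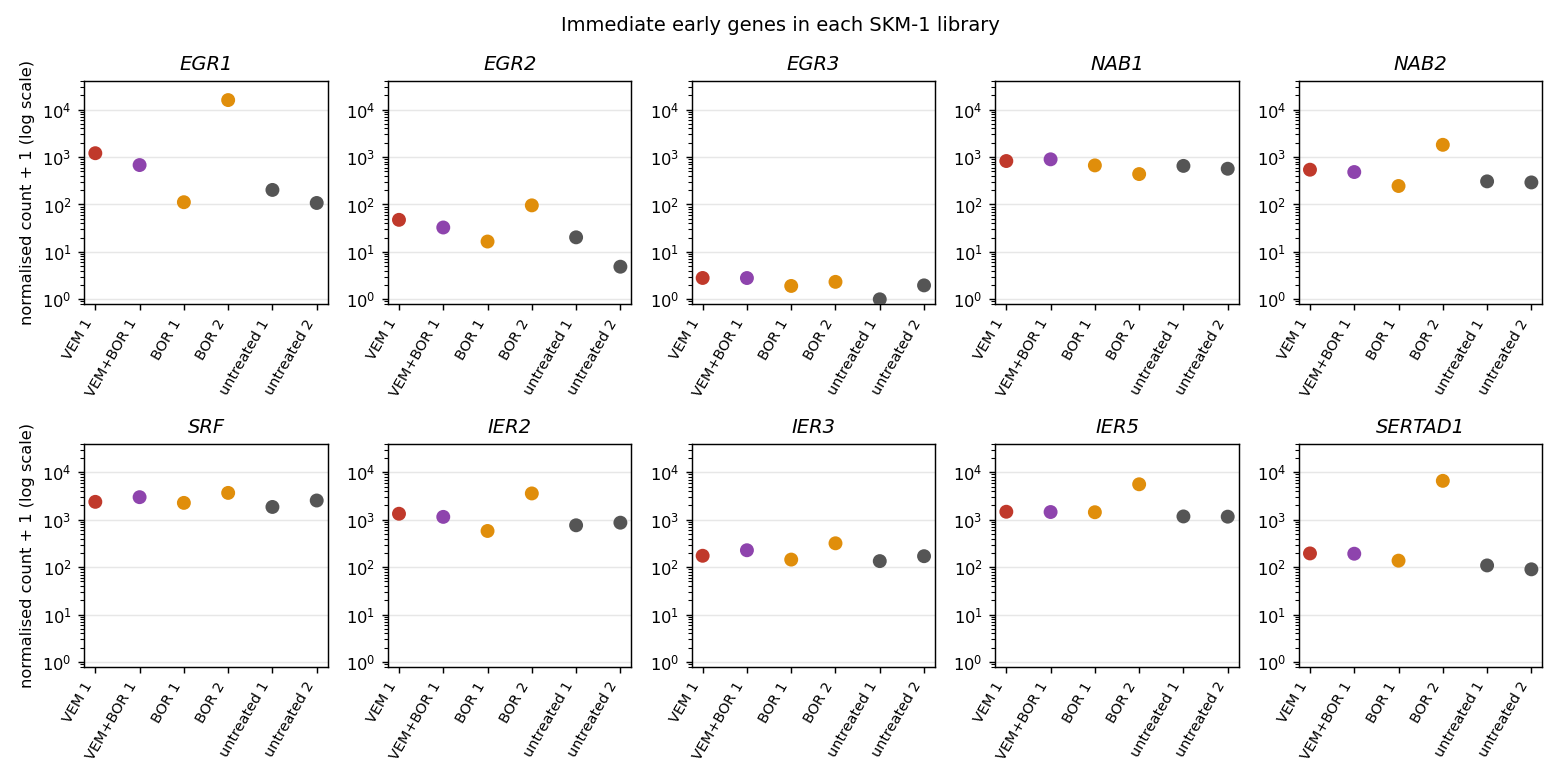
Normalised count plus 1 of each of the 10 genes (vertical, log scale) in each of the 6 libraries (horizontal), 1 point per library, coloured by group. EGR1 reaches 15871 and SERTAD1 6601 in BOR 2, while EGR1 is 1202 in VEM and 676 in VEM+BOR, against 201 and 106 in the untreated libraries.

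The corepressor gene NAB2 was 539 in VEM, 482 in VEM+BOR, 244 in BOR 1 and 1807 in BOR 2, with 306 and 290 in untreated cells. NAB1 was 822 in VEM, 893 in VEM+BOR, 665 in BOR 1 and 436 in BOR 2, with 649 and 565 in untreated cells. The corepressor genes therefore parted in BOR 2, where NAB2 had its highest value and NAB1 its lowest. This rests on the 1 library that stood apart on all genes. NAB1 differed there from its untreated mean by -0.47 in log2, against an SD of 1.46 over all genes. Per kilobase of the deposited gene length, the level of NAB2 was 6.73 times that of NAB1 in BOR 2, 1.07 times in VEM, 0.875 times in VEM+BOR and 0.595 times in BOR 1, against 0.765 and 0.834 times in untreated cells.

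SRF was 2380 in VEM, 2988 in VEM+BOR, 2263 in BOR 1 and 3676 in BOR 2, with 1858 and 2542 in untreated cells. VEM and BOR 1 fell inside the untreated range, and VEM+BOR and BOR 2 above it. IER2 was 1335 in VEM, 1147 in VEM+BOR, 578 in BOR 1 and 3580 in BOR 2, with 762 and 865 in untreated cells. Like EGR1 and NAB2, it was above the untreated pair in 3 treated libraries and not in BOR 1, where it was below both.

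IER5 was 1472 in VEM, 1452 in VEM+BOR, 1438 in BOR 1 and 5586 in BOR 2, with 1172 and 1159 in untreated cells, whose values nearly coincide. IER3 was 173 in VEM, 226 in VEM+BOR, 143 in BOR 1 and 317 in BOR 2, with 133 and 169 in untreated cells. SERTAD1 was 194 in VEM, 191 in VEM+BOR, 136 in BOR 1 and 6601 in BOR 2, with 108 and 89.0 in untreated cells. IER5 and SERTAD1 were the 2 members with all 4 treated libraries above both untreated ones. The share of all genes with this pattern was not counted, so whether it is unusual is not known.

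Per kilobase, the order of levels shifted between libraries. SRF had the highest level per kilobase in 5 libraries, at 566 normalised counts per kilobase in VEM and 711 in VEM+BOR, against 442 and 605 in untreated cells. In BOR 2 the first place went to EGR1 at 5058 per kilobase, followed by SERTAD1 at 3123, IER5 at 1334, IER2 at 1165 and SRF at 875. EGR1 had 383 per kilobase in VEM, behind SRF and IER2, and 215 in VEM+BOR, behind SRF, IER2 and IER5, against 64.2 and 33.9 in untreated cells, where SERTAD1, EGR2 and EGR3 alone were of like level or lower. In untreated cells IER2 (248 and 282 per kilobase) and IER5 (280 and 277) changed places between the libraries. So did IER3 with NAB1 and NAB2, and EGR1 with SERTAD1, so these neighbours do not differ beyond their spread. EGR2 and EGR3 were the lowest pair in every library.

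The test of VEM against untreated cells asked which transcripts differ after the RAF inhibitor, and EGR1 was the member with the largest change. In limma, EGR1 had a log2 change of 3.02 (SE 0.46, adjusted p = 0.00718), which ranked 16 from the highest of 15689 genes tested. It was the only member of the 9 tested to pass, where 0.0446% of all genes passed, and EGR3 was left out by the filter on low values. Of the 9 tested members 8 were above both untreated libraries, where 30.3% of all genes were, and the exception was SRF. The members' median log2 change was 0.71, against 0.00 for all genes tested.

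Among members that did not pass in VEM, EGR2 had a log2 change of 2.26 (SE 0.97), SERTAD1 0.97 (SE 0.52), NAB2 0.85 (SE 0.41) and IER2 0.71 (SE 0.37). NAB1 had 0.43 (SE 0.38), IER5 0.33 (SE 0.36), IER3 0.19 (SE 0.49) and SRF 0.12 (SE 0.38). Each of these had an adjusted p of 1. The authors' deposited table gives EGR1 a log2 fold change of 2.96 with an adjusted p of 9.42e-06 for VEM.

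The call for EGR1 in VEM rests on 1 library against 2, with 1 residual degree of freedom, and assumes that the lone library varies like the untreated pair. It passed in 6 of 10 alternatives, with adjusted p between 9.65e-05 and 1. It was lost when all 6 libraries shared 1 fit (log2 change 3.03, adjusted p = 1), when untreated 1 or untreated 2 was left out of that fit (3.49 and 2.57, adjusted p = 1 each) and with no filter on low values (3.02, adjusted p = 0.974).

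With VEM and BOR together all 9 tested members had values above both untreated libraries, where 30.1% of genes did, and none passed the threshold, which 0.192% of genes did. EGR1 had a log2 change of 2.19 (SE 0.47, adjusted p = 0.0672 in limma) and ranked 68 from the highest of 15606. EGR1 was the 1 member with an unadjusted p under 0.05. The median of the members was 0.58, against 0.01 for all genes. EGR2 had 1.72 (SE 0.998), SERTAD1 0.94 (SE 0.52), NAB2 0.68 (SE 0.41), IER3 0.58 (SE 0.48) and NAB1 0.55 (SE 0.38). IER2 had 0.48 (SE 0.37), SRF 0.45 (SE 0.38) and IER5 0.30 (SE 0.36), and the adjusted p of these 8 was 1.

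EGR1 in VEM+BOR passed in 5 of 12 alternatives, with adjusted p between 0.000344 and 1. On recovered reads edgeR gave it a log2 change of 2.09 (adjusted p = 0.000344) and DESeq2 one of 2.10 (adjusted p = 0.0197). With genes kept at a mean of at least 50 the limma value of 2.19 passed (adjusted p = 0.0306). In the fit of all 6 libraries it passed without BOR 1 (adjusted p = 0.00486) and without BOR 2 (adjusted p = 0.0372), with a log2 change of 2.20 in each. The authors' deposited table gives it 2.12 with an adjusted p of 0.0195 for VEM+BOR.

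**Figure D2:**
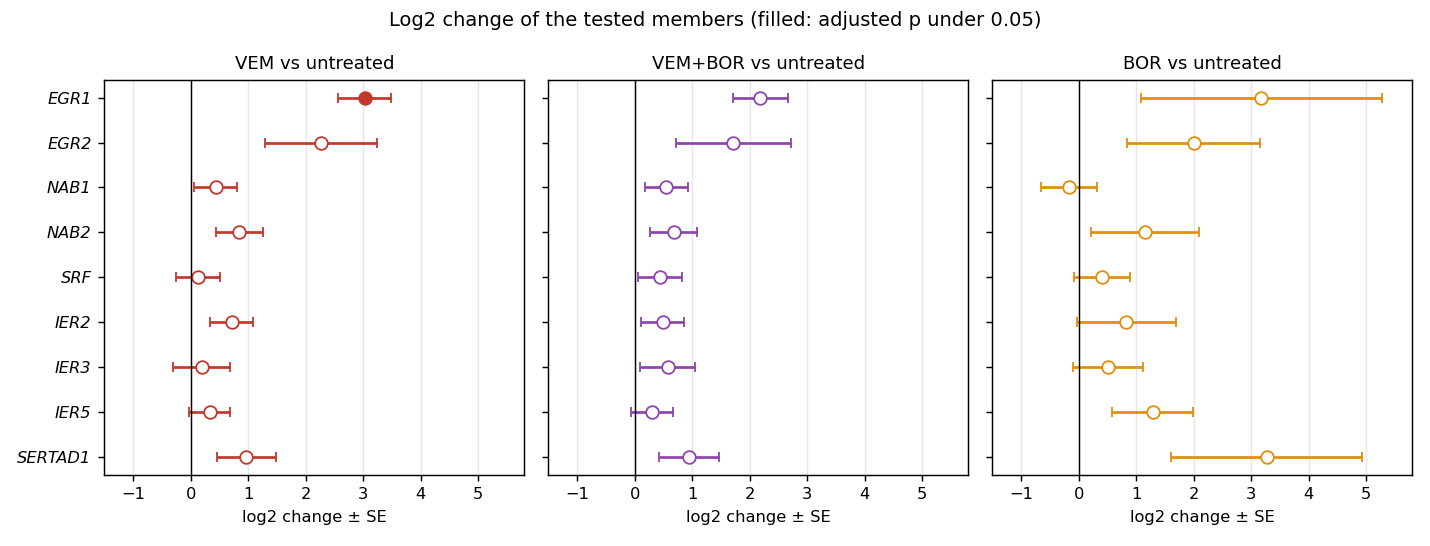
Log2 change with its SE in limma (horizontal) of the 9 tested members (vertical) in VEM, VEM+BOR and BOR against untreated cells, with filled points past an adjusted p of 0.05. EGR1 in VEM, at 3.02, is the filled point, and the bars are widest in BOR, where EGR1 has an SE of 2.10.

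VEM and VEM+BOR were compared with the same untreated libraries, so their changes are not separate observations. Set directly against VEM in the fit of all 6 libraries, VEM+BOR differed in EGR1 by a log2 value of -0.83 (SE 2.99, adjusted p = 1) and in EGR2 by -0.54 (SE 1.62). None of the 9 members passed, as 0% of 15438 genes did in limma, with 10 genes at an unadjusted p under 0.05. This sets 1 library against 1, and its spread is estimated from the BOR and untreated pairs. SERTAD1 (-0.02) and IER5 (-0.02) had nearly the same value in VEM+BOR and VEM, though with SEs of 2.37 and 0.99 that does not show that they act alike.

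With both BOR libraries no member passed against untreated cells. In limma 0% of 15382 genes passed, with 38 at an unadjusted p under 0.05, while edgeR on recovered reads called 0 genes and DESeq2 35. EGR1 had a log2 change of 3.18 with an SE of 2.10 (adjusted p = 0.968), and SERTAD1 one of 3.27 with an SE of 1.66 (adjusted p = 0.968). DESeq2 on recovered reads called both, EGR1 at 5.68 (adjusted p = 0.00177) and SERTAD1 at 5.08 (adjusted p = 0.00184), in a range over alternatives of 3.70e-05 to 1 for each. The authors' deposited table gives SERTAD1 5.10 with an adjusted p of 0.00564 and EGR1 5.70 with an adjusted p of 0.764. IER5 and SERTAD1 were the 2 of 9 members above both untreated libraries in both BOR libraries, where 11.7% of genes were.

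Taken one library at a time, BOR 1 and BOR 2 differed in sign for EGR1, NAB1, NAB2, IER2 and IER3. BOR 2 alone against the untreated pair passed for 6 of 9 members, all higher, where 26.1% of 15371 genes passed in either direction. EGR1 had 6.75 (SE 0.43, adjusted p = 3.70e-05), SERTAD1 6.06 (SE 0.38, adjusted p = 3.70e-05), EGR2 3.27 (SE 0.92, adjusted p = 0.0264), NAB2 2.60 (SE 0.36, adjusted p = 0.000814), IER5 2.26 (SE 0.35, adjusted p = 0.00138) and IER2 2.14 (SE 0.35, adjusted p = 0.00180). IER3 (1.08), SRF (0.76) and NAB1 (-0.47) did not pass. BOR 1 alone passed for 0 of 9, where 0% of genes passed, with EGR1 at -0.40 (SE 0.53), IER2 at -0.49 (SE 0.37) and NAB2 at -0.28 (SE 0.43). These fits set 1 library against 2.

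The size of the BOR 2 values can be read against all genes. On 1 scale 7 of 9 members were at least 1 above the untreated mean in log2 in BOR 2, where 16.4% of genes were, 2 in VEM (3.16% of genes), 2 in VEM+BOR (3.1%) and 0 in BOR 1 (1.24%). The 2 in VEM and VEM+BOR were EGR1 and EGR2. For EGR2 the untreated libraries themselves lay at 1.03 and -1.03 from their mean, so untreated 1 also reached this cut. EGR1 ranked 11 and SERTAD1 18 from the highest of 15438 genes in BOR 2, and in BOR 1 they ranked 14155 and 1362. The ratio of EGR1 to its untreated mean was 103 in BOR 2 and 0.718 in BOR 1, and that of SERTAD1 was 67.1 and 1.38.

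**Figure D3:**
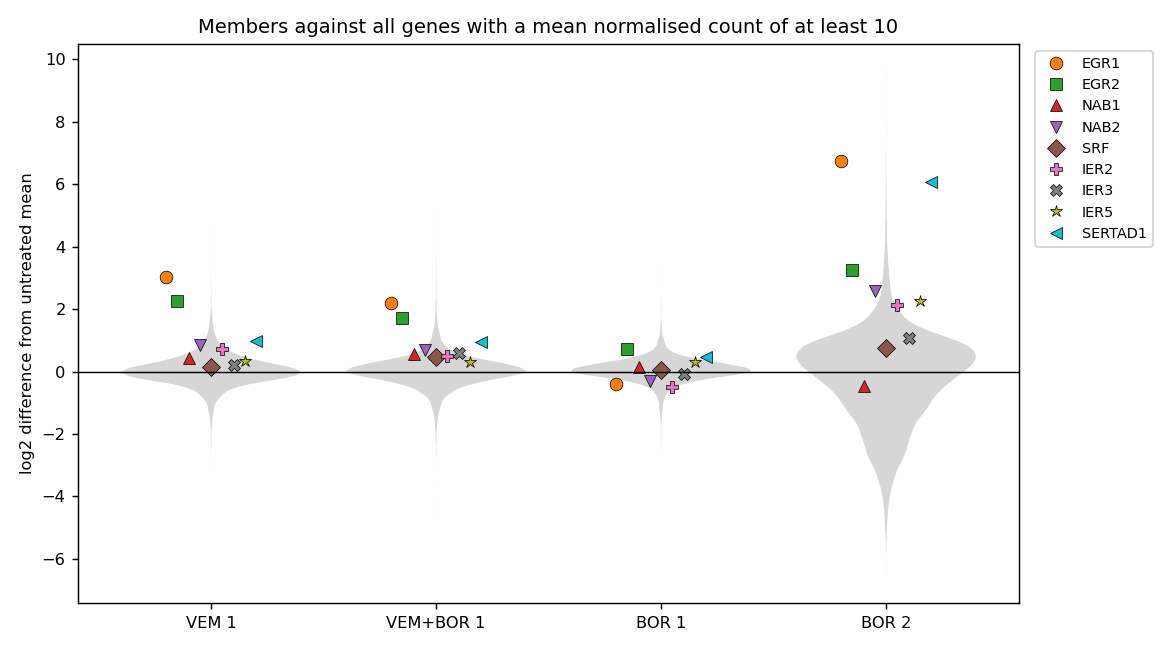
Log2 difference from the untreated mean (vertical) for each treated library (horizontal), with grey outlines for the density of 15438 genes and symbols for the 9 tested members. EGR1 at 6.75 and SERTAD1 at 6.06 lie at the upper end in BOR 2, the library with the widest grey outline, and all 9 members lie between -0.49 and 0.73 in BOR 1.

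Adding VEM to BOR was judged against this split pair. In the fit of all 6 libraries none of the 9 members passed for VEM+BOR against BOR, as 0% of genes did, with 45 genes at an unadjusted p under 0.05. EGR1 had -0.97 (SE 2.59) and SERTAD1 -2.31 (SE 2.05). Leaving out 1 BOR library sets 1 library against 1, with the spread taken from the untreated pair alone. Without BOR 1, EGR1 was -4.55 and SERTAD1 -5.10, and 5 of 9 members passed, where 23.6% of 15427 genes did. Without BOR 2, EGR1 was 2.60 and SERTAD1 0.49. The direction of EGR1 in this comparison is thus decided by which BOR library is used. The difference between the effect of VEM with and without BOR also passed for 0 of 9 members and 0% of genes, with 4 genes at an unadjusted p under 0.05. Without BOR 1, where each treated group is 1 library, it passed for 6 of 9 members and 13.1% of 15427 genes.

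Other immediate early genes were described from a list of 45 (FOS, JUN, DUSP, KLF and NR4A genes among them, with NR4A1 and ID2 also on other lists), of which 42 were tested in VEM and in VEM+BOR and 43 in BOR. None passed in any of the 3 comparisons. In VEM 21 were above and 9 below both untreated libraries, where 30.3% and 27.6% of all genes were, with a median log2 change of 0.22 against 0.00 for all genes. In VEM+BOR 28 were above and 4 below, where 30.1% and 27.9% of all genes were, with a median of 0.48 against 0.01. In BOR 15 were above both untreated libraries in both BOR libraries and 1 below, where 11.7% and 8.24% of all genes were, with a median of 1.62 against 0.04.

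Within this list SGK1, a serum- and glucocorticoid-regulated kinase, was 262 in VEM, 382 in VEM+BOR, and 100 and 742 in BOR 1 and 2, against 46.4 and 80.3 in untreated cells. Its log2 change was 2.08 in VEM (SE 0.57, adjusted p = 0.553) and 2.61 in VEM+BOR (SE 0.55, adjusted p = 0.0521). PHLDA1, an ERK-responsive pleckstrin-domain gene, was 73.7 in VEM, 158 in VEM+BOR, and 42.9 and 523 in BOR 1 and 2, against 21.9 and 25.2 in untreated cells. The AP-1 gene FOSB was 59.1 in VEM, 95.0 in VEM+BOR, and 31.1 and 1210 in BOR 1 and 2, against 31.5 and 28.1 in untreated cells. ATF3, a stress-induced repressor, was 143 in VEM, 120 in VEM+BOR, and 49.3 and 6788 in BOR 1 and 2, against 40.3 and 55.2 in untreated cells. EGR1 and ATF3 were higher in VEM than in VEM+BOR, and SGK1, PHLDA1 and FOSB had their higher value in VEM+BOR. Set directly against VEM, VEM+BOR differed in log2 by -0.24 (SE 2.96) in ATF3 and 0.54 (SE 1.40) in SGK1. The values were 1.09 (SE 1.66) in PHLDA1 and 0.68 (SE 2.27) in FOSB. Each difference is smaller than its SE and sets 1 library against 1, so it does not separate these genes into kinds.

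In BOR 2, 37 of 43 listed genes were at least 1 above the untreated mean in log2, where 16.4% of all genes were, with a median of 3.13 against 0.04 for all genes. In BOR 1 the count was 0, where 1.24% of all genes were, with a median of 0.09 against 0.05. In VEM it was 7 (3.16% of all genes), with a median of 0.23 against 0.01, and in VEM+BOR 9 (3.1%), with a median of 0.49 against 0.02. At least 1 below were 0 in BOR 2, 1 in BOR 1, 1 in VEM and 0 in VEM+BOR. For all genes the share at least 1 below was not counted, so whether these counts are unusual is not known.

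**Figure D4:**
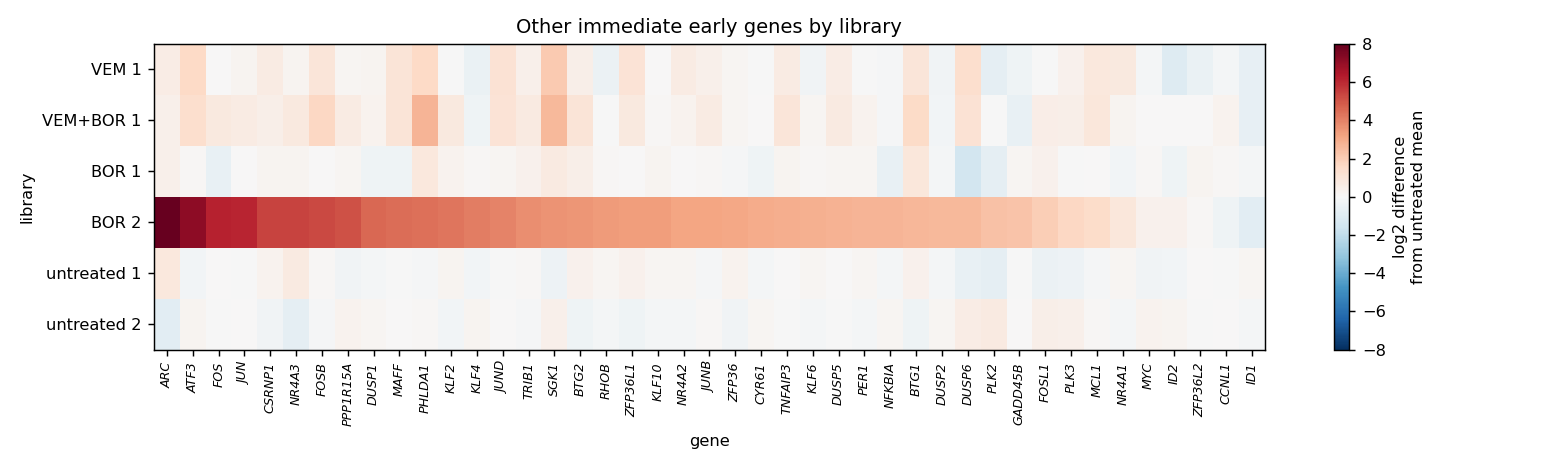
Log2 difference from the untreated mean (colour) of the 43 other immediate early genes with a mean normalised count of at least 10 (columns, ordered by BOR 2) in each of the 6 libraries (rows). BOR 2 is red in nearly all columns, with a median of 3.13, while the medians are 0.23 in VEM, 0.49 in VEM+BOR and 0.09 in BOR 1.

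Of 6 family relatives of the members 4 were tested, and none passed. The SERTAD1 relative SERTAD3 was 406 in VEM, 505 in VEM+BOR, and 385 and 1080 in BOR 1 and 2, against 373 and 343 in untreated cells. SERTAD2 was 552 in VEM, 544 in VEM+BOR, and 401 and 622 in BOR 1 and 2, against 466 and 370 in untreated cells. CDCA4, of the same family, was 1139 in VEM, 1257 in VEM+BOR, and 1030 and 2062 in BOR 1 and 2, against 1069 and 1107 in untreated cells. IER5L was 258 in VEM, 293 in VEM+BOR, and 272 and 895 in BOR 1 and 2, against 208 and 281 in untreated cells.

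Of 6 SRF partner factors 5 were tested and none passed, with a median log2 change of -0.08 in VEM and 0.02 in VEM+BOR. In BOR 2 the partner genes lay on both sides of the untreated pair. ELK1, the ternary complex factor gene outside the naming rule and added after its values were seen, was 194 in VEM, 208 in VEM+BOR, and 234 and 498 in BOR 1 and 2, against 172 and 242 in untreated cells. ELK3, a ternary complex factor, was 393 in VEM, 361 in VEM+BOR, and 376 and 72.0 in BOR 1 and 2, against 437 and 232 in untreated cells. MRTFB, an actin-sensing coactivator, was 387 in VEM, 415 in VEM+BOR, and 625 and 155 in BOR 1 and 2, against 655 and 357 in untreated cells. ELK4 was 1137 in VEM, 1261 in VEM+BOR, and 1376 and 944 in BOR 1 and 2, against 1169 and 1018 in untreated cells, and MRTFA was 1331, 1522, 1439 and 2201 in the same order, against 1458 and 1597 in untreated cells.

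The cytoskeletal targets of SRF and its MRTF coactivators were on both sides of the untreated values. Of 20 genes 17 were tested and none passed, with 4 above and 4 below both untreated libraries in VEM, and 4 above and 9 below in VEM+BOR. Of all genes 30.3% were above and 27.6% below in VEM, and 30.1% and 27.9% in VEM+BOR. The 4 of 17 above are thus near that background, while the 9 of 17 below in VEM+BOR are a larger share than 27.9%. That excess rests on 1 library and was not tested. The median log2 changes were -0.01 in VEM and -0.11 in VEM+BOR, against 0.00 and 0.01 for all genes. ZYX, which encodes the focal adhesion protein zyxin, was 3555 in VEM, 4101 in VEM+BOR, and 2183 and 10744 in BOR 1 and 2, against 2319 and 3277 in untreated cells. The smooth muscle actin gene ACTA2 was 40.0 in VEM, 7.24 in VEM+BOR, and 19.2 and 26.7 in BOR 1 and 2, against 28.0 and 15.5 in untreated cells. TPM4 was 3637 in VEM, 3714 in VEM+BOR, and 3428 and 2828 in BOR 1 and 2, against 2899 and 2287 in untreated cells. TPM1 was 310, 267, 384 and 311 in the same order, against 377 and 381. In BOR 2, 3 of the 17 genes were at least 1 above the untreated mean in log2, where 16.4% of all genes were. At least 1 below was 1 gene, and the share of all genes below was not counted.

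Of 20 genes listed as EGR1 targets, 17 were tested in VEM, with 15 above both untreated libraries (30.3% of all genes), 0 below (27.6%) and 0 past the threshold. In VEM+BOR 18 were tested, with 13 above (30.1% of all genes), 1 below (27.9%) and 1, PTGS2, past the threshold (0.192%). The median log2 changes were 0.43 in VEM and 0.49 in VEM+BOR, against 0.00 and 0.01 for all genes. PTGS2, the inducible prostaglandin synthase gene, was 293 in VEM, 415 in VEM+BOR, and 70.3 and 986 in BOR 1 and 2, against 59.6 and 63.9 in untreated cells. It rose in VEM+BOR by a log2 change of 2.72 (SE 0.52, adjusted p = 0.0302 in limma) and had 2.22 in VEM (SE 0.54, adjusted p = 0.336). The VEM+BOR value rests on 1 library and passed in 8 of 12 alternatives, with adjusted p between 5.83e-05 and 1. The call was lost with no filter on low values (adjusted p = 0.967), with all 6 libraries in 1 fit, and in that fit without untreated 1 or untreated 2 (adjusted p = 1 each). TNF was 28.2 in VEM, 76.0 in VEM+BOR, and 5.48 and 111 in BOR 1 and 2, against 4.38 and 5.81 in untreated cells. GDF15 was 11.8 in VEM, 28.1 in VEM+BOR, and 6.39 and 58.7 in BOR 1 and 2, against 0.876 and 2.90 in untreated cells, and IL1B was 15.5, 37.1, 5.48 and 29.3 in the same order, against 13.1 and 1.94 in untreated cells. These genes answer to other factors as well, so the list does not measure EGR1 activity.

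Genes of the myeloid circuit in which EGR factors and GFI1 act against each other, known from mouse, gave no call among 7 tested of 10. CSF1R, the macrophage growth factor receptor gene, was 11.8 in VEM, 18.1 in VEM+BOR, and 54.8 and 40.0 in BOR 1 and 2, against 109 and 46.4 in untreated cells. Its log2 change was -2.51 in VEM (SE 0.73, adjusted p = 0.645) and -1.94 in VEM+BOR (SE 0.70, adjusted p = 0.884). CEBPB, a monocyte-lineage factor, was 1852 in VEM, 1898 in VEM+BOR, and 1718 and 6772 in BOR 1 and 2, against 1101 and 1229 in untreated cells. CEBPA was 1236 in VEM, 1277 in VEM+BOR, and 2364 and 2035 in BOR 1 and 2, against 1850 and 2834 in untreated cells. ID2 was 411 in VEM, 864 in VEM+BOR, and 666 and 1051 in BOR 1 and 2, against 730 and 960 in untreated cells. GFI1 itself, outside the naming rule and added after its values were seen, was 2888 in VEM and 3822 in VEM+BOR. It was 3770 and 1703 in BOR 1 and 2, against 2690 and 2853 in untreated cells. Of the 7 tested, 2 were above and 3 below both untreated libraries in VEM (30.3% and 27.6% of all genes). With VEM+BOR the counts were 2 above and 2 below (30.1% and 27.9%).

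The genes whose pattern was most like that of EGR1 were sought among 12758 protein-coding genes, by the root mean square difference of log2 deviations from the untreated mean over the 6 libraries. DDIT4, an inhibitor of mTORC1, was nearest at 0.436. SLC2A3, a glucose transporter gene, followed at 0.791, ATF3 at 0.831, the matrix protein gene TNC at 0.887 and CHAC1, a glutathione-degrading enzyme gene, at 0.891. DDIT4 was 1734 in VEM, 1221 in VEM+BOR, and 185 and 22983 in BOR 1 and 2, against 190 and 146 in untreated cells. SLC2A3 was 709 in VEM, 1061 in VEM+BOR, and 279 and 22090 in BOR 1 and 2, against 265 and 288 in untreated cells. The measure is led by BOR 2, where all 5 genes were at least 4.92 above their untreated mean in log2. TNC is close to the filter on low values, at 12.7 in VEM and 9.05 in VEM+BOR, against 3.50 and 1.94 in untreated cells.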

How the data were processed

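RNA from 6 SKM-1 libraries was measured by sequencing after poly-T selection, per the labels' protocols. Tools named in the submitters' processing notes are edgeR 3.22.5, DESeq2 1.20.0, featureCounts 1.5.0-p3 and HISAT2 2.0.5, without their roles. No source used here gives the build. The authors deposited 3 tables, each with a normalised signal per gene (read counts divided by 1 factor per library) for 1 treated group and the untreated libraries, and the deposited log2 fold changes and deposited p-values of their own comparison. Of the values, 100% were whole multiples of their column's smallest step within 0.001, which gave back the reads. That held in VEM too, with a step of 0.991, but its reads were not taken further and VEM entered no count test.

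Members were tested with limma 3.58.1 (R 4.3.3, trended prior variance) on log2(value + 1) over all genes with a mean of at least 10, two-sided, with Benjamini-Hochberg adjustment over all genes tested and a threshold of 0.05. This scale understates changes of low genes. VEM, VEM+BOR and BOR were each tested against untreated cells within their own table. The other 3 comparisons, and all levels per library, used the 23519 genes that all tables hold, rescaled by 1 median-of-ratios factor per library. Lone libraries were assumed to vary like the replicated ones. The fit was tested on simulated data. Alternatives were pseudocounts of 0.5 and 5, other filters, median centring, 1 fit of all libraries, left-out libraries, and tests of the recovered reads with DESeq2 1.42.0 or edgeR 4.0.16. Libraries with the same group were numbered in accession order, and the numbers pair nothing. The 10 genes, the lists and the tests were chosen with earlier results of these data known. All 10 members are named. From each list the genes past the threshold are named, with those of largest absolute log2 change in VEM or VEM+BOR up to 4, and the 5 genes nearest EGR1. Motifs were matched exactly on both strands. One list of cell type markers is not reported here.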

Additional observations from a re-analysis of the deposited data

How the results depend on the processing

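Of 492 alternative values for 54 member results, 443 kept their direction and side of the threshold, 4 no longer passed, 24 newly passed and 21 reversed. Every reversal came with a left-out library, 18 of them a BOR and 3 an untreated library; the cause was not tested. In VEM, 7 genes and 1 member passed; with no filter on low values, and with all 6 libraries in 1 fit, 0 genes and 0 members did, and with a library left out of that fit 0 to 17 genes and 0 to 1 members. In VEM+BOR, 30 genes and 0 members passed; 0 genes did with no filter and in the fit of all 6 libraries, 87 genes with edgeR, 64 with DESeq2, and 0 to 52 genes and 0 to 1 members with a library left out. The 1 member that passed with a mean of at least 50, with edgeR and with DESeq2 was EGR1. In BOR, 0 genes passed in limma, 35 genes and 2 members in DESeq2, and 0 to 4008 genes and 0 to 6 members with a library left out. Left-out libraries gave 0 to 3648 genes and 0 to 5 members for VEM+BOR against BOR, 0 to 1 genes for VEM+BOR against VEM, and 0 to 2022 genes and 0 to 6 members for the interaction. The highest counts for BOR, for VEM+BOR against BOR and for the interaction came without BOR 1.

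The log2 ranges with a library left out, for results that reversed, were as follows. In VEM SRF ranged over -0.095 to 0.36. In BOR the ranges were -0.40 to 6.75 for EGR1, -0.47 to 0.14 for NAB1, -0.28 to 2.60 for NAB2, -0.49 to 2.14 for IER2 and -0.062 to 1.08 for IER3. In VEM+BOR against BOR they were -4.55 to 2.60 for EGR1, -1.55 to 0.98 for EGR2, -1.91 to 0.98 for NAB2, -0.30 to 0.40 for SRF, -1.64 to 0.99 for IER2, -0.49 to 0.65 for IER3, -1.94 to 0.014 for IER5 and -5.10 to 0.49 for SERTAD1. In the interaction they were -0.015 to 0.59 for NAB1, -2.76 to 0.12 for NAB2, -0.43 to 0.27 for SRF, -2.36 to 0.27 for IER2 and -0.69 to 0.45 for IER3. No paired analysis was possible because the labels give the groups no shared replicate numbers. EGR3 and EGR2 are limited by depth.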
